A study of Homo sapiens with 10 samples.

Results

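The genes described here lie on the distal long arm of human chromosome 12, in band 12q24, between MED13L and the telomere. The list holds 58 genes of the 60574 in the count table, and 58 of the 58 passed the filter on low counts, which left 17834 genes. The list was selected on position and on the difference between guides measured in these same libraries, so its values are a description and no test is made of it. U266 is an established line of malignant plasma cells from multiple myeloma, and the labelled cell type is plasma cells. All cells expressed dCas9-VPR, a Cas9 that cannot cut DNA joined to transcription activators, delivered by lentivirus. One group of 5 libraries (A to E) carried a guide RNA to the start site of EFNB2, a membrane-bound ephrin ligand, and 5 more libraries, also lettered A to E, carried a scrambled guide with no target. Both groups were kept under blasticidin and puromycin, which kill cells without the constructs, and had no other treatment. Whether libraries that share a guide were grown as separate cultures, or whether either population grew from few cells, is not in the labels. The p-values therefore cover only the variation among these 10 libraries, which may be technical.

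Genes that are neighbours on a chromosome arm need not work together. They share a stretch of DNA and often a stretch of chromatin, so a change in the copies of a segment, or in its chromatin, can alter the RNA of many of them at once. Gains and losses of whole arms are common in myeloma and in cultured tumour lines. The counts used here measure RNA only, and DNA copy number was not analysed here. The genes of the list have mostly housekeeping roles, among them DNA replication, the control of translation, RNA processing and vesicle traffic.

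Depth ran from 47268072 to 56513548 counts per library. EFNB2 was at 0.955, 1.12, 1.254, 1.496 and 1.21 CPM (counts scaled to the size of the library) in libraries A to E with its guide and at 0.170, 0.136, 0.143, 0.110 and 0.0365 CPM in the controls, the last of these below the level of 3 counts. The guides did not overlap for EFNB2, and the log2 fold change was 3.32 (SE 0.25, adjusted p = 4.68e-08). Markers of plasma cells were present, with 9 of 9 at 1 CPM or more and a summed level of 5515 to 5797 CPM with the EFNB2 guide against 5800 to 6599 CPM in the controls. Of 5 B cell markers 0 reached 1 CPM, of 5 T cell markers 1 did (CD3E, 3.03 CPM), of 5 monocyte markers 0, of 4 erythroid markers 0 with 2 listed at 0 counts in every library, and of 5 fibroblast markers 2. The fibroblast list summed to 25.5 to 30.0 CPM against 20.2 to 27.3 CPM, led by COL1A1 at 21.0 CPM. What part the plasma cell and fibroblast markers had in the results below was not tested. Both A libraries stood apart from the others of their guide: on the second principal component, which held 8.33% of the variance, EFNB2 guide A was at 21.2 and control A at -25.9, and the other 8 lay between -8.04 and 12.6.

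Most of the 58 genes were moderately higher with the EFNB2 guide. By edgeR's quasi-likelihood test with Benjamini-Hochberg adjustment over all tested genes, at an adjusted p of 0.05, 48 of the 58 were called higher, 3 were called lower (FBXW8, TESC and PITPNM2) and 7 were not called (MED13L, FBXO21, PXN, DYNLL1, RNF10, VPS37B and SCARB1). The background is high in this experiment: 45.4% of all tested genes were called, 22.8% higher and 22.6% lower. All 5 EFNB2 guide libraries lay above all 5 controls for 45 of the 58 genes, and below them for 2 (FBXW8 and TESC), where 15% of all tested genes lay above and 15.2% below. Because the contrast chose the list, nothing is read from these shares. The median log2 fold change of the 58 was 0.29, a ratio of 1.22, with quartiles of 0.18 and 0.36 and a range from -0.64 to 0.98. Over all tested genes the median was 0.01, with quartiles of -0.14 and 0.19. In bulk RNA, more RNA per cell and a larger share of cells with a given level cannot be told apart.

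The shift was present in each EFNB2 guide library. Relative to the mean of the 5 controls on the log2 CPM scale, the median of the 58 genes was 0.31, 0.27, 0.27, 0.25 and 0.25 in libraries A to E with the EFNB2 guide. In the controls A to E it was -0.05, 0.01, 0.02, 0.01 and 0.00. The guides did not overlap, and the spread was the same size in both (SD 0.0266, n = 5 libraries each). The number of the 58 genes above all 5 controls was 52, 50, 48, 45 and 49 in the 5 EFNB2 guide libraries. Of all 17834 tested genes, 4924, 5448, 5778, 5407 and 5694 lay above all 5 controls in the same libraries. The list was selected on this difference, so nothing is read from these counts. EFNB2 guide A was the highest of its guide and control A the lowest of its guide. Without both A libraries the median log2 fold change of the list was 0.25, with 47 genes called higher and 6 lower. In that fit 55.2% of all tested genes were called, beside 45.4% in the main fit.

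**Figure D1:**
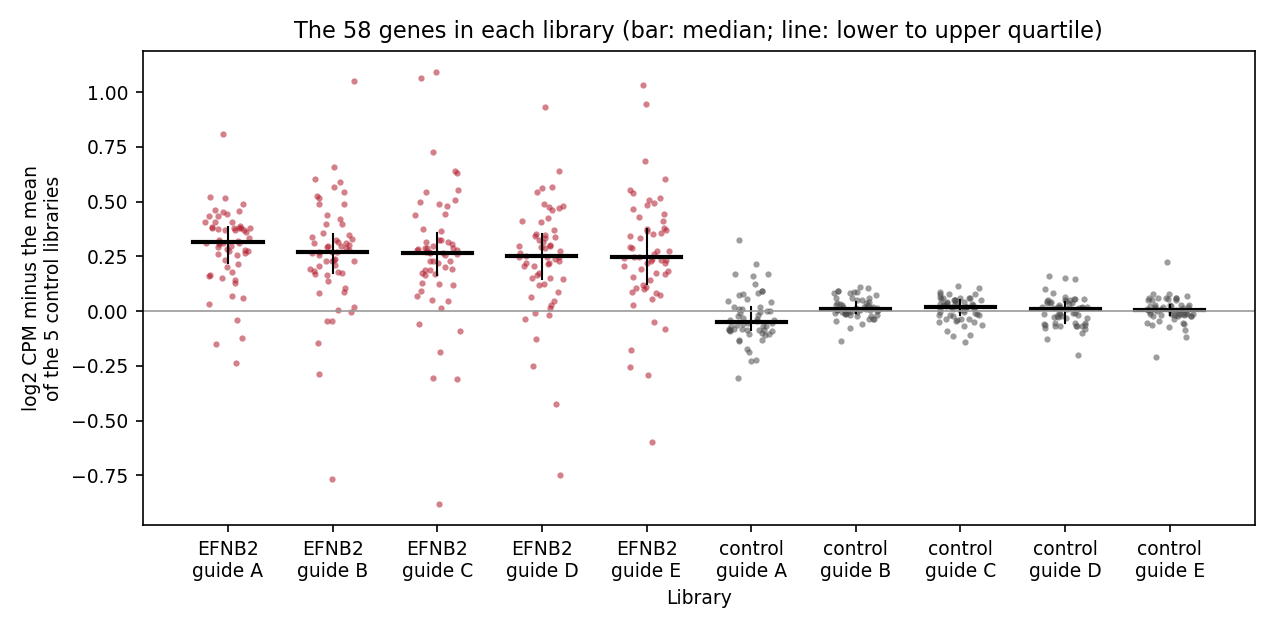
Each point is 1 of the 58 genes in 1 library, as log2 CPM minus the mean log2 CPM of the 5 control libraries (y axis), with the libraries on the x axis, bars at the medians and lines from the lower to the upper quartile. The medians of the 5 EFNB2 guide libraries lie between 0.25 and 0.31, all above those of the controls, which lie between -0.05 and 0.02.

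The promoters of 4 genes stand for the patterns described below. RFC5 is the first gene of the list called higher on the way to the telomere, CIT had the largest difference, GCN1 has the highest CPM of the list and lies close to its median, and FBXW8, on the centromeric side of KSR2, was lower. The sequences are the 250 bases before the annotated start, 5′ to 3′ on the gene's strand, from RefSeq in build GRCh38.p14. They span chr12:116910700-116910949 on the plus strand for FBXW8, chr12:118016453-118016702 on the plus strand for RFC5, chr12:119877321-119877570 on the minus strand for CIT and chr12:120194716-120194965 on the minus strand for GCN1. Capitals mark CCAAT and TTTGAA on either strand (ATTGG and TTCAAA when read on the other), and in CIT the first CCAAT runs directly into TTCAAA without overlap. The CCAAT box is the site of the factor NF-Y, and TTTGAA is the core of an element known from promoters of mitotic genes.
FBXW8: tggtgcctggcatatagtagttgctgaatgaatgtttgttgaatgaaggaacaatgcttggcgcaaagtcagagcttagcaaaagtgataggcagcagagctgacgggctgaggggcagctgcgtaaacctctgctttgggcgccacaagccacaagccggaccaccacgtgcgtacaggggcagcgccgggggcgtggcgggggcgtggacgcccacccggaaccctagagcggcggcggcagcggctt
RFC5: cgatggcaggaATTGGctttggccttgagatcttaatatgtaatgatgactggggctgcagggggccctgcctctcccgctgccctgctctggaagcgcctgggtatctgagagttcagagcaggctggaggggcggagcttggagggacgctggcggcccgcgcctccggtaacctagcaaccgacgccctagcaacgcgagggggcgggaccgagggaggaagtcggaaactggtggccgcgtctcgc
CIT: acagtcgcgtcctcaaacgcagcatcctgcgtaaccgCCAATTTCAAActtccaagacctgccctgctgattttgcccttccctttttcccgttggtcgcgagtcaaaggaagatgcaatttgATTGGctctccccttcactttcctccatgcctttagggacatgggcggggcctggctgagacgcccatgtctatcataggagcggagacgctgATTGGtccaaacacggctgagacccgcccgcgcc
GCN1: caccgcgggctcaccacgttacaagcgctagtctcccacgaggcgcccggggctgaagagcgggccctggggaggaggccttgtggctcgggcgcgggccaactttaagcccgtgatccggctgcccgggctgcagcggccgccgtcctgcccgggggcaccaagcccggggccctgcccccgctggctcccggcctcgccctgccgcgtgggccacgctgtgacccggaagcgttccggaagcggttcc
CIT held CCAAT 3 times and TTTGAA 1 time, RFC5 held CCAAT 1 time, and neither motif was found in the 250 bases of FBXW8 or GCN1. GC content was 61.2% for FBXW8, 64.8% for RFC5, 56.4% for CIT and 75.2% for GCN1. RefSeq windows of 300 bases (250 before and 50 after the start) matched 50 of the 58 genes. CCAAT was in 34.6% of all 35116 such windows and in 33.3% of the 66 windows of these 50 genes, and TTTGAA in 15.2% and 10.6%. A match of letters describes the sequence only.

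The raised stretch began beyond MED13L. MED13L itself, at chr12:115958576-116277693 (from RefSeq, in GRCh38 like every position here), was not raised, nor were the next 3 genes of the list. Among the 4 genes up to KSR2, which starts 1.49 Mb from the start of MED13L, 0 were called higher and 2 lower, with a median log2 fold change of -0.05. KSR2, a scaffold of the RAF and MAP kinase pathway and not in the list, was not called (log2 fold change -0.12, adjusted p = 0.299). RFC5, at 2.06 Mb, was the first gene of the list called higher. Among the 54 genes from RFC5 to GOLGA3, 48 were called higher and 1 lower, with a median of 0.29 and quartiles of 0.20 and 0.39. The division at KSR2 was made after the values were seen and is a description.

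Genes of the same interval outside the list were counted on both sides of KSR2. The count table lists 415 such genes, of which 101 passed the low-count filter, and 72 of the 101 were called higher, 4 lower and 25 not. That filter can keep a rare gene through the group in which it is high, so the next counts are limited to genes whose mean log2 CPM was 1 or more. Of the genes outside the list above that level, 4 lay up to and with KSR2, of which 1 was called higher (RNFT2) and 2 lower (median -0.24). Distal to KSR2 there were 56, of which 50 were called higher and 1 lower, with a median of 0.38 (a ratio of 1.30). With the list genes added, which were selected on these values, 97 of 109 distal genes were called higher and 2 lower (median 0.33). In the 10 Mb on the centromeric side of MED13L, 14 of 68 genes were called higher and 30 lower (median -0.06), and on all of chromosome 12 outside the interval 114 of 522 higher and 169 lower (median -0.03). Over all tested genes, segments of 10 Mb had medians from -0.13 to 0.06 before MED13L, 0.33 in the first 10 Mb after it and 0.41 beyond.

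**Figure D2:**
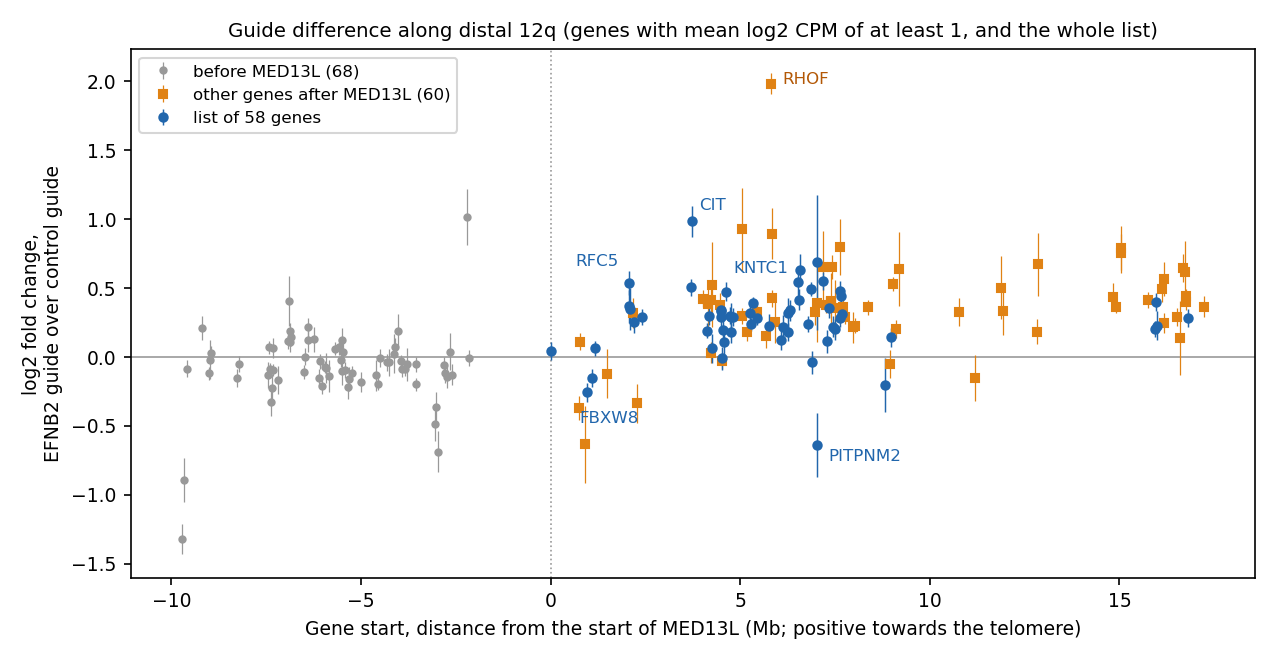
Each point is a gene at its distance in Mb from the start of MED13L (x axis, positive towards the telomere) with its log2 fold change between guides (y axis) and bars of 2 SE on either side; blue circles are the 58 genes, orange squares 60 other genes after MED13L and grey points 68 genes before it. From RFC5 on, most points lie above 0, while the genes next to MED13L and those before it scatter around or below 0.

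Just outside MED13L the genes did not move together. On the centromeric side, RBM19, a ribosome assembly factor, was not called (log2 fold change -0.0086, adjusted p = 0.838). LINC01234, a long noncoding RNA, was higher at 2.98 against 1.47 CPM (log2 fold change 1.01, adjusted p = 9.71e-07), and PLBD2, a lysosomal protein, was lower at -0.13 (adjusted p = 0.0148). Towards the telomere, the rise went on to the last genes above this level of expression, a mean log2 CPM of 1. ANKLE2, a protein of nuclear envelope assembly, had a log2 fold change of 0.45 (adjusted p = 1.08e-09), the Golgi gene GOLGA3 0.28 and the zinc finger gene ZNF268 0.36 (adjusted p = 1.67e-06).

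Distance from MED13L was only weakly related to the size of the difference. Over the 53 list genes distal to KSR2 whose mean log2 CPM was 1 or more, the log2 fold change had a Pearson correlation of -0.12 and a Spearman correlation of -0.13 with distance. With mean log2 CPM the same genes had 0.29 and 0.10. These are descriptions across genes that share the same 10 libraries, and genes are not independent replicates. By stretch, the median log2 fold change was 0.35 for the 5 genes at 1.5 to 3 Mb, 0.29 for the 16 at 3 to 5 Mb, 0.28 for the 5 at 5 to 6 Mb, 0.32 for the 11 at 6 to 7 Mb and 0.31 for the 11 at 7 to 8 Mb. The 2 genes at 8 to 10 Mb, SCARB1 and DHX37, had a median of -0.03, and the 4 beyond 10 Mb had 0.26.

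Of the 58 genes 29 lay within 0.1 of the list's median log2 fold change and 41 within 0.2. The distance between the lower and upper quartile was 0.18 for the list, which was selected on these values. At a mean log2 CPM of 1 or more it was 0.22 for chromosome 12 outside the interval and 0.25 for all tested genes. Whether the list was more even than other genes was not tested. A gene was said to depart when its own value lay more than 3 of its SE and more than 0.2 from that median. By this rule 7 genes departed above (CIT, KNTC1, MPHOSPH9, ZCCHC8, RFC5, PRKAB1 and HIP1R), 9 below (PITPNM2, FBXW8, SCARB1, TESC, VPS37B, DYNLL1, MED13L, PXN and FBXO21) and 42 did not.

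**Figure D3:**
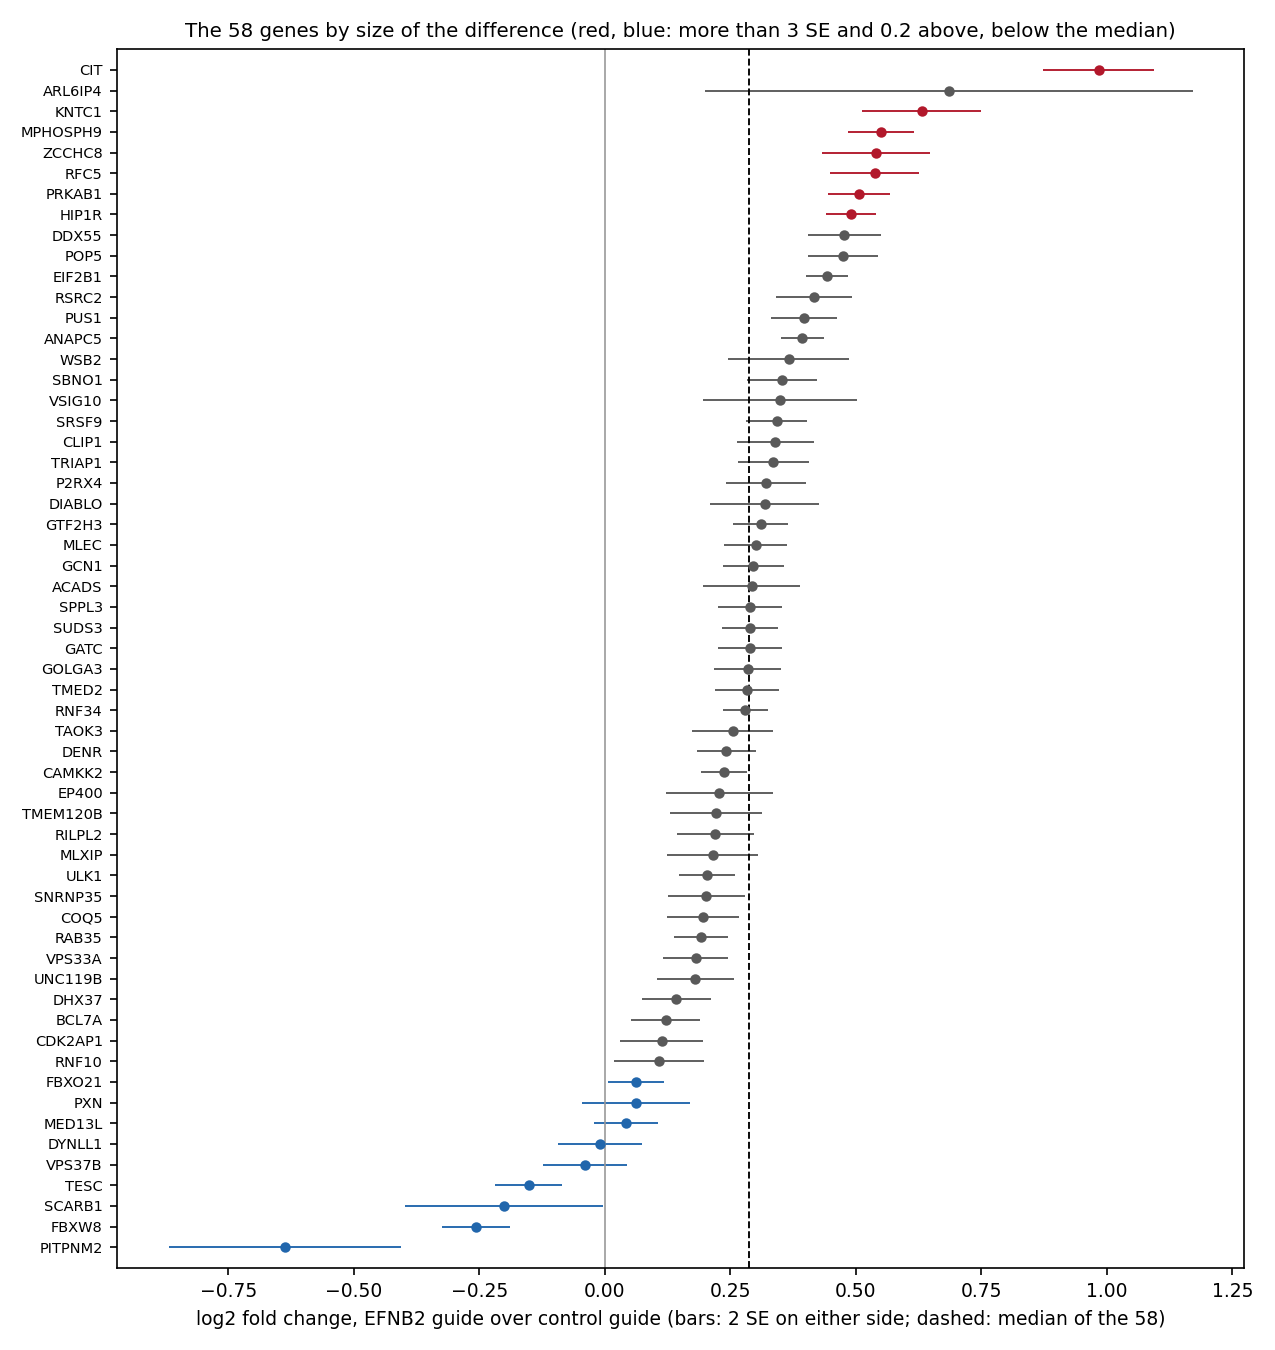
The 58 genes are listed on the y axis by the log2 fold change between guides (x axis, bars of 2 SE on either side), with the 7 that depart above the list's median in red, the 9 below in blue and the median of 0.29 as a dashed line. Most grey points lie close to the dashed line, CIT lies far to its right at 0.98 and PITPNM2 far to its left at -0.64.

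Genes of DNA replication, division and the cytoskeleton held the largest rise, that of CIT, and 2 of the genes that did not pass. Of 9 such genes 7 were called higher and 0 lower, with a median log2 fold change of 0.39. Differences in parentheses or after the words rose by, here and for the other roles, are log2 fold changes between guides. CIT encodes citron kinase, which acts at the midbody in the last step of cell division. Its level was 74.1, 87.6, 90.0, 80.6 and 86.5 CPM in libraries A to E with the EFNB2 guide and 47.2, 43.1, 39.0, 40.5 and 41.9 CPM with the control guide. The guides were far apart, with a log2 fold change of 0.98 (SE 0.055), and the A libraries were the closest pair across guides. KNTC1 encodes ROD, a kinetochore protein of the spindle checkpoint, and was at 191, 219.8, 231, 217 and 224 CPM in libraries A to E with the EFNB2 guide and 162, 142, 126, 133 and 136 CPM with the control guide. All 5 EFNB2 guide libraries lay above all controls (0.63, SE 0.06). RFC5, a subunit of the clamp loader that places PCNA on DNA, was at 66.3, 71.4, 72.0, 72.4 and 74.5 CPM in libraries A to E with the EFNB2 guide and 55.1, 49.3, 46.9, 47.3 and 47.2 CPM with the control guide. Here too the guides did not overlap (0.54, SE 0.044), with EFNB2 guide A the lowest of its guide and control A the highest of its own. MPHOSPH9, a centriole protein that keeps cilia from forming, was at 76.6, 80.8, 84.9, 79.5 and 77.5 CPM in libraries A to E with the EFNB2 guide and 57.7, 54.8, 52.7, 53.7 and 53.9 CPM with the control guide. It rose by 0.55 on the log2 scale (SE 0.033) with no overlap.

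Other genes of this role were nearer the median of the list or below it. ANAPC5, a scaffold subunit of the anaphase-promoting complex, rose from 192 ± 3.65 to 252 ± 2.96 CPM (mean ± SD, n = 5 each; log2 fold change 0.39), and CLIP1, which tracks growing microtubule ends, by 0.34. CDK2AP1, a cell cycle and chromatin protein, was at 41.1, 37.7, 36.7, 36.6 and 37.1 CPM in libraries A to E with the EFNB2 guide and 32.99, 37.2, 36.2, 33.4 and 35.2 CPM with the control guide. Its guides overlapped, and the rise of 0.11 (SE 0.042) was not called without both A libraries, nor in 5 of the 10 fits that left out 1 library (EFNB2 guide A or B, or control A, D or E). DYNLL1, a light chain shared by dynein and other complexes, was at 216, 191, 189, 195 and 191 CPM in libraries A to E with the EFNB2 guide and 179.7, 198, 208, 204 and 198 CPM with the control guide. The guides overlapped (log2 fold change -0.0094), with EFNB2 guide A the highest and control A the lowest of all 10, and without both A libraries the gene was called lower (-0.08). PXN, an adaptor of focal adhesions, was at 10.2, 9.18, 9.13, 8.996 and 9.71 CPM in libraries A to E with the EFNB2 guide and 8.79, 8.94, 9.55, 9.40 and 8.62 CPM with the control guide. It overlapped between guides (0.06).

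**Figure D4:**
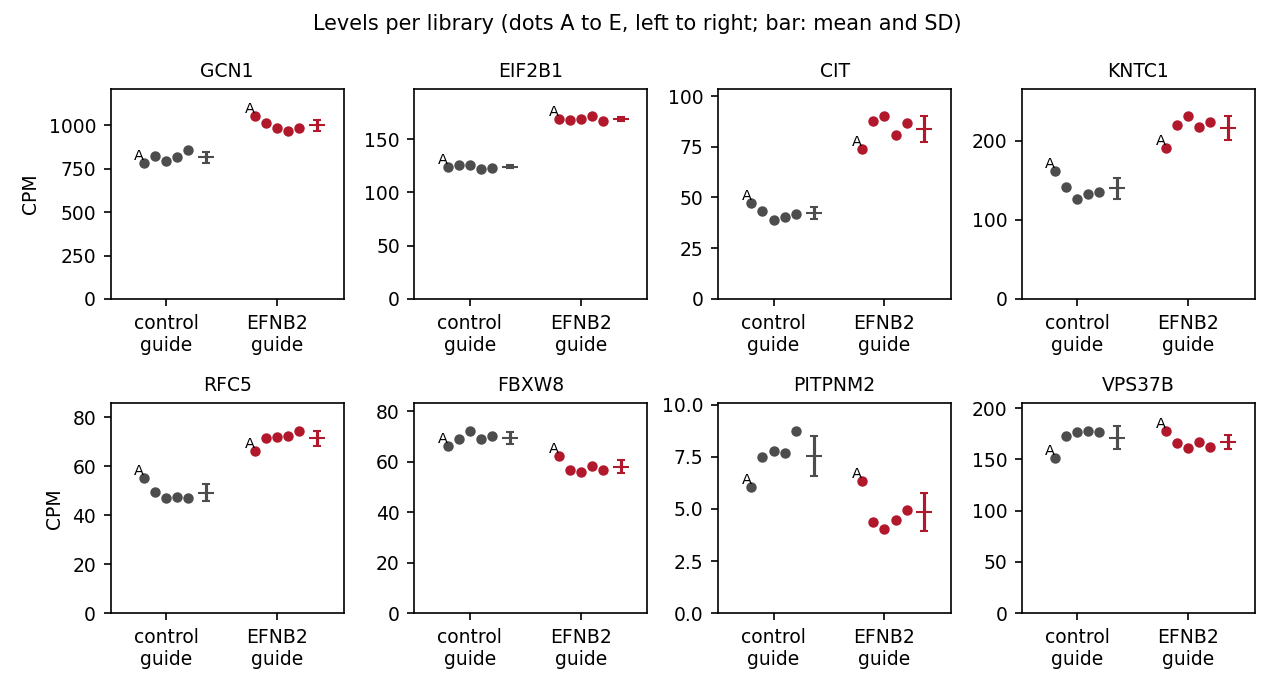
CPM (y axis, from 0) of 8 genes in the 5 control and 5 EFNB2 guide libraries (x axis), each library a dot in the order A to E, with the mean and SD of each guide as a bar. GCN1, EIF2B1, CIT, KNTC1 and RFC5 lie higher with the EFNB2 guide in every library, FBXW8 lies lower in every library, and PITPNM2 and VPS37B overlap through the A libraries.

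All 9 genes of RNA processing and modification were called higher, with a median log2 fold change of 0.42. ZCCHC8, a scaffold of the nuclear exosome targeting complex, was at 52.8, 61.0, 62.8, 60.2 and 59.0 CPM in libraries A to E with the EFNB2 guide and 45.6, 42.3, 39.4, 38.7 and 37.4 CPM with the control guide. The guides did not overlap (0.54, SE 0.054). DHX37, an RNA helicase of small ribosomal subunit assembly, had the smallest rise of this role, at 156, 143, 141, 141 and 137 CPM in libraries A to E with the EFNB2 guide and 125, 129, 129, 132 and 136 CPM with the control guide. The lowest EFNB2 guide library and the highest control differed little (0.14, SE 0.034). ARL6IP4, a protein of splicing speckles, was barely detected, at 0.312, 0.445, 0.627, 0.328 and 0.573 CPM in libraries A to E with the EFNB2 guide and 0.359, 0.291, 0.287, 0.239 and 0.237 CPM with the control guide. Its guides overlapped, and the log2 fold change of 0.69 had an SE of 0.24. That call was lost in 7 of the 10 fits that left out 1 library and is uncertain. The helicase gene DDX55 rose by 0.48, POP5 of RNase P by 0.48, RSRC2 by 0.42, the pseudouridine synthase gene PUS1 by 0.40, the splicing factor gene SRSF9 by 0.34 and SNRNP35 of the minor spliceosome by 0.20.

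All 4 genes of translation and its control were called higher. GCN1, which senses stalled ribosomes and activates the kinase GCN2, was at 1051, 1012, 981, 967 and 986 CPM in libraries A to E with the EFNB2 guide and 780.0, 821, 793, 819 and 859 CPM with the control guide. The guides were separate (0.30, SE 0.03), and the difference was close to the median of the list. EIF2B1, the alpha subunit of the exchange factor of translation initiation, was at 169, 168, 169, 171 and 168 CPM in libraries A to E with the EFNB2 guide and 124, 126, 126, 122 and 123 CPM with the control guide. Its libraries varied little within a guide, and the rise was 0.44 (SE 0.021). GATC, a subunit of a mitochondrial enzyme that completes glutaminyl-tRNA, rose by 0.29, and DENR, which helps ribosomes to restart and to recycle, by 0.24.

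Genes of membrane traffic and the lysosome were raised in 8 of 9 cases, with a median of 0.28. TMED2, a cargo receptor between the endoplasmic reticulum and the Golgi, was at 424, 392, 393, 402 and 389 CPM in libraries A to E with the EFNB2 guide and 307, 337, 341, 333 and 325 CPM with the control guide. The guides did not overlap (0.28, SE 0.032). MLEC, an endoplasmic reticulum lectin for glycoproteins, was at 416, 395, 389.7, 391 and 379.6 CPM in libraries A to E with the EFNB2 guide and 298, 324, 332, 324 and 324 CPM with the control guide. Control A was the lowest of the 10 and the guides were separate (0.30, SE 0.032). GOLGA3, a golgin of the Golgi membrane, was at 282, 283, 283, 276 and 265.6 CPM in libraries A to E with the EFNB2 guide and 208, 233, 232, 235 and 232 CPM with the control guide. Again the guides did not overlap, with a log2 fold change of 0.28 (SE 0.033). HIP1R, which links clathrin coats to actin, was at 98.8, 101, 102, 100.2 and 103 CPM in libraries A to E with the EFNB2 guide and 71.8, 70.1, 70.9, 71.2 and 74.9 CPM with the control guide. It lay above the median of the list with little spread (0.49, SE 0.025). VPS37B, a subunit of ESCRT-I in the sorting of membrane proteins for lysosomal breakdown, was the exception, at 178, 166, 161, 167 and 162 CPM in libraries A to E with the EFNB2 guide and 152, 173, 177, 177 and 177 CPM with the control guide. Its guides overlapped only through the A libraries (-0.04), and without both of them it was called lower (-0.11). RAB35 of endosome recycling rose by 0.19, the protease gene SPPL3 by 0.29, VPS33A of lysosome tethering by 0.18 and RILPL2 by 0.22.

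Kinase and signalling genes went both ways, with 6 of 8 called higher and 2 lower. PRKAB1 encodes a beta subunit of the energy sensor AMPK and was at 67.3, 67.7, 68.6, 65.2 and 64.9 CPM in libraries A to E with the EFNB2 guide and 50.1, 45.1, 47.2, 46.2 and 46.5 CPM with the control guide. The guides were separate (0.51, SE 0.031). PITPNM2, which moves phosphatidylinositol between membranes, had the largest fall of the list, at 6.35, 4.39, 4.05, 4.45 and 4.94 CPM in libraries A to E with the EFNB2 guide and 6.05, 7.47, 7.76, 7.69 and 8.75 CPM with the control guide. EFNB2 guide A overlapped the controls and the other 4 EFNB2 guide libraries lay below all of them (-0.64, SE 0.12). TESC, the calcium-binding protein tescalcin, was at 22.8, 22.4, 21.8, 22.7 and 21.9 CPM in libraries A to E with the EFNB2 guide and 23.7, 24.9, 25.5, 25.3 and 24.6 CPM with the control guide. It was lower in every EFNB2 guide library than in any control (-0.15, SE 0.033), and it lies on the centromeric side of KSR2. The ATP-gated channel gene P2RX4 rose by 0.32, the kinase genes TAOK3 by 0.26, CAMKK2 by 0.24 and ULK1, which starts autophagy, by 0.20, and UNC119B, a carrier of lipid-modified proteins, by 0.18.

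Of 5 genes of ubiquitin ligases and their substrate receptors 2 were called higher and 1 lower. FBXW8 and FBXO21 lie on the centromeric side of KSR2, where 0 of the 4 genes of the list were called higher. FBXW8, the substrate receptor of the cullin 7 ligase, was at 62.5, 56.8, 56.1, 58.4 and 56.8 CPM in libraries A to E with the EFNB2 guide and 66.3, 69.2, 72.4, 69.1 and 70.4 CPM with the control guide. All 5 EFNB2 guide libraries lay below all controls (-0.26, SE 0.034). FBXO21, another F-box protein close to it, was at 37.7, 38.2, 37.1, 37.1 and 37.4 CPM in libraries A to E with the EFNB2 guide and 35.4, 35.9, 35.4, 35.5 and 37.4 CPM with the control guide. Control E reached the level of the EFNB2 guide libraries (0.06). RNF10, a ligase that acts on ribosomal proteins, was at 317, 273, 267, 261 and 274 CPM in libraries A to E with the EFNB2 guide and 243, 254, 269, 261 and 264 CPM with the control guide. The guides overlapped, with EFNB2 guide A far above the rest (0.11). WSB2 rose by 0.37 and RNF34 by 0.28.

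Of 7 genes of transcription and chromatin 6 were called higher, with a median of 0.23. MED13L, a subunit of the kinase module of Mediator, was at 56.8, 55.6, 60.5, 56.6 and 56.6 CPM in libraries A to E with the EFNB2 guide and 52.9, 55.3, 56.9, 57.98 and 54.7 CPM with the control guide. The guides overlapped (0.04). BCL7A, a subunit of BAF chromatin remodelling complexes, was at 23.5, 23.8, 22.5, 22.5 and 22.8 CPM in libraries A to E with the EFNB2 guide and 21.8, 21.2, 20.9, 20.4 and 21.5 CPM with the control guide. Its small rise separated the guides (0.12, SE 0.034). SBNO1 rose by 0.35, GTF2H3 of the factor TFIIH by 0.31, SUDS3 of the SIN3 deacetylase complex by 0.29 and MLXIP, the glucose-sensing factor MondoA, by 0.21. EP400, a remodelling ATPase, rose by 0.23 with EFNB2 guide and control libraries overlapping, and its reads may be shared with the pseudogene EP400P1 nearby, whose rise was 0.49.

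Of 5 genes of mitochondria, lipid metabolism and survival 4 were called higher. TRIAP1, which carries lipids in mitochondria and restrains apoptosis, rose by 0.34, DIABLO, which antagonises inhibitors of apoptosis, by 0.32, ACADS of fatty acid breakdown by 0.29 and COQ5 of coenzyme Q synthesis by 0.20. SCARB1, the receptor for high-density lipoprotein, was low at 2.92, 2.996, 2.42, 2.23 and 2.51 CPM in libraries A to E with the EFNB2 guide and 2.84, 2.85, 2.90, 3.34 and 3.14 CPM with the control guide. The guides overlapped (-0.20, SE 0.098). The remaining membrane protein genes VSIG10 and TMEM120B rose by 0.35 and 0.22.

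Levels per length spanned a wide range. As CPM per kilobase of exon, TMED2 (95.1), GCN1 (93.9), DYNLL1 (66.7) and MLEC (53.1) were highest, and ARL6IP4 (0.133), SCARB1 (0.364) and VSIG10 (0.533) lowest. Among the 54 genes distal to KSR2, 39 of 42 whose mean log2 CPM was 5 or more were called higher, with a median log2 fold change of 0.30, and 9 of 12 below that level, with a median of 0.22. Of all tested genes 22.8% were called higher, and 25.4% of those with a mean log2 CPM of 1 or more. The share of all genes on either side of 5 was not computed. The list was selected on this difference, so nothing is read from these counts. The count of calls also depends on depth, since less abundant genes have larger errors. For 6 genes a neighbour on the opposite strand with more counts overlaps: RFC5 for WSB2, PXN-AS1 for PXN, SRSF9 for GATC, RHOF for TMEM120B, KMT5A for RILPL2 and EIF2B1 for DDX55. The libraries were strand-specific, but the strand setting of the counting is not given in the sources used here, so reads of such pairs may be mixed.

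Among the other genes of the interval, RHOF stood out. RHOF, a small GTPase of filopodia, was at 51.3, 48.5, 47.1, 48.6 and 47.1 CPM in libraries A to E with the EFNB2 guide and 13.1, 12.3, 11.9, 12.5 and 11.8 CPM with the control guide. The guides were far apart (log2 fold change 1.98, SE 0.038, adjusted p = 7.76e-15), well beyond any gene of the list. Among genes with names other than clone names, the next largest rises at a mean log2 CPM of 1 or more were in OASL, an interferon-induced antiviral protein (0.93, adjusted p = 1.38e-04), and in the noncoding RNAs LINC01089 (0.89, adjusted p = 1.51e-06), TMED2-DT (0.80, adjusted p = 1.22e-05) and ADGRD1-AS1 (0.75, adjusted p = 5.76e-07). OASL was at 2.52 to 3.72 CPM with the EFNB2 guide and 1.07 to 2.15 CPM in the controls. The 3 called lower at that level were HRK, a BH3-only activator of apoptosis (-0.63, adjusted p = 0.00160), C12orf49 (-0.37, adjusted p = 4.26e-06) and the pseudogene RPS2P5 (-0.34, adjusted p = 0.00135). HRK and C12orf49 lie between MED13L and KSR2, as does RNFT2, a ring finger gene between them that was called higher (0.11, adjusted p = 0.00884) with no overlap between guides. C12orf49 fell from 384 ± 22.3 to 298 ± 16.4 CPM (mean ± SD, n = 5 each).

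Among whole chromosomes, 15 had a median of this size. With mean log2 CPM of 1 or more, 327 of its 410 genes were called higher and 22 lower, with a median log2 fold change of 0.30 and quartiles of 0.16 and 0.46. The quartiles for the 109 interval genes distal to KSR2 were 0.22 and 0.44. Whether the shifts differ in size was not tested. Over all tested genes the median of every other chromosome from 1 to 22, and of X, lay between -0.03 and 0.05.

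Genes that work in the same protein complexes as the list, but lie elsewhere in the genome, were compared next. For 19 complexes or pathways with a gene in the list, 119 partner genes encoded outside the interval were listed and 115 passed the low-count filter. Of these 35 were called higher (30.4%), 21 lower and 59 not, with a median log2 fold change of 0.02. The 7 partners on chromosome 15 were all called higher, and of the 108 elsewhere 28 were called higher (25.9%) and 21 lower (19.4%), with a median of 0.00. These shares stand beside 22.8% and 22.6% of all tested genes. Among all tested genes with a mean log2 CPM of 1 or more, 25.4% were called higher and 28.97% lower. Beside these genes, the share of partners called higher was similar and the share called lower was smaller. Whether the partners differ from either background was not tested. In 18 of the 19 complexes the gene of distal 12q24 lay above the median of its partners, which the choice of the list favours.

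**Figure D5:**
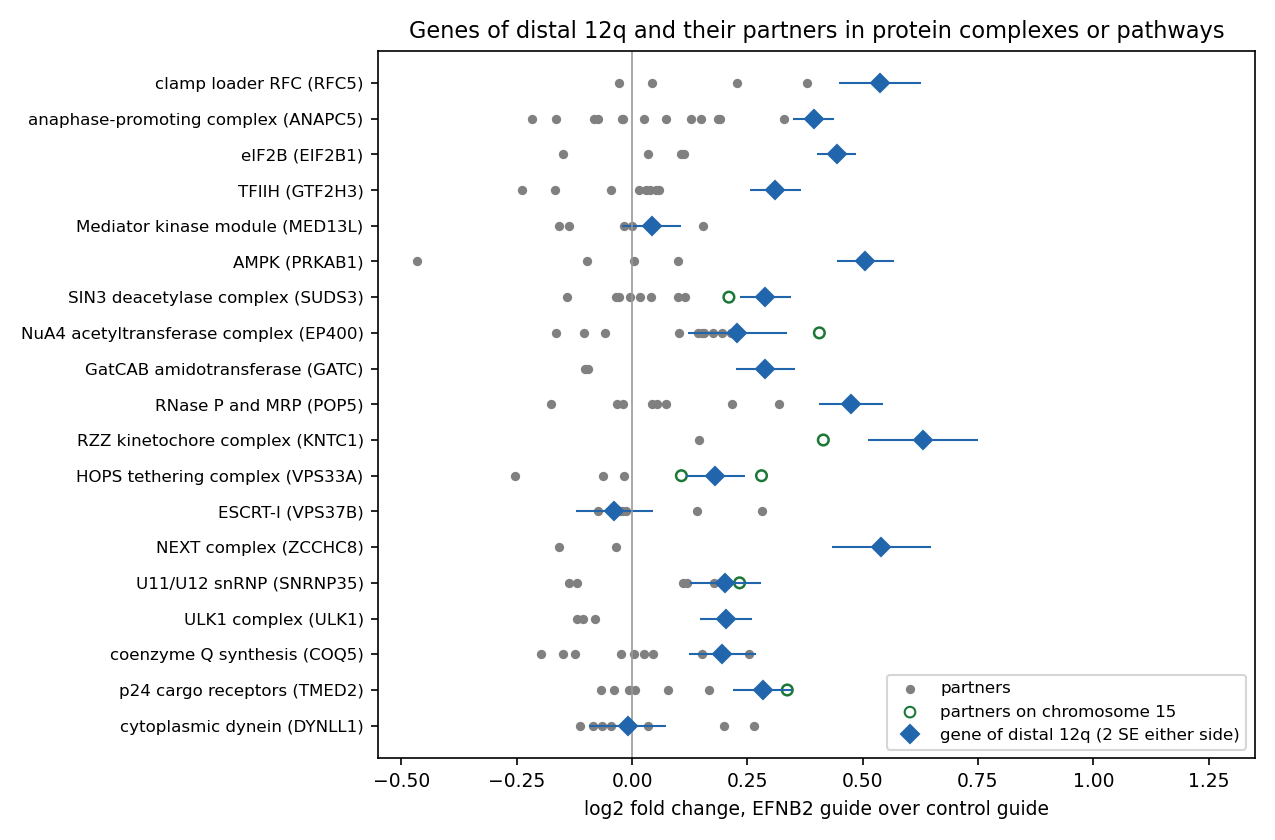
For each of 19 complexes (y axis), the gene of distal 12q24 is a blue diamond with 2 SE on either side, its partners off chromosome 15 are grey dots and those on chromosome 15 open green circles, by log2 fold change between guides (x axis). The diamonds mostly lie to the right of the grey dots, while MED13L, VPS37B, DYNLL1 and COQ5 lie among them.

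In the clamp loader RFC, where RFC5 had 0.54, 2 of 4 partners were called higher and 0 lower. RFC3 rose by 0.38 (adjusted p = 3.63e-06) and RFC1 was at -0.03 (adjusted p = 0.356). The spindle checkpoint partners of KNTC1, ZW10 and the chromosome 15 gene ZWILCH, rose by 0.15 (adjusted p = 0.00810) and 0.41 (adjusted p = 3.21e-09). In the anaphase-promoting complex 6 of 13 partners were called higher and 3 lower, from ANAPC4 at 0.33 (adjusted p = 9.68e-04) to ANAPC16 at -0.22 (adjusted p = 4.02e-05). Whether the share of raised partners differs between complexes was not tested.

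Complexes of energy sensing, transcription, translation and RNA decay came next. Of the AMPK partners of PRKAB1, 0 of 4 were called higher and 2 lower, with PRKAB2 at 0.10 (adjusted p = 0.0596) and PRKAG2 at -0.47 (adjusted p = 4.80e-06). Of the TFIIH partners of GTF2H3 0 of 8 were called higher, from CCNH at 0.06 (adjusted p = 0.204) to the kinase gene CDK7 at -0.24 (adjusted p = 4.24e-05). In eIF2B the partners of EIF2B1 ran from EIF2B4 at 0.11 (adjusted p = 0.00559) to EIF2B2 at -0.15 (adjusted p = 0.00110). The partners of ZCCHC8, MTREX and RBM7, were at -0.03 (adjusted p = 0.270) and -0.16 (adjusted p = 0.0418). In the ULK1 complex 0 of 3 partners were called higher and 2 lower, with ATG13 at -0.12 (adjusted p = 0.00360) and ATG101 at -0.08 (adjusted p = 0.150). In RNase P and MRP, POP1 rose by 0.32 (adjusted p = 1.45e-06) and RPP40 was lower at -0.18 (adjusted p = 0.0150), beside POP5 at 0.48.

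The NuA4 acetyltransferase complex of EP400 had the largest number of partners called higher, 8 of 11, with 1 lower. Its partners ran from the chromosome 15 gene MORF4L1 at 0.41 (adjusted p = 1.05e-09) to RUVBL1 at -0.16 (adjusted p = 1.99e-04). In the U11/U12 snRNP of SNRNP35 3 of 6 partners were called higher and 1 lower. They ran from PDCD7 on chromosome 15 at 0.23 (adjusted p = 3.43e-05) to ZCRB1 at -0.14 (adjusted p = 0.0134). In the HOPS complex of VPS33A 2 of 5 were called higher and 1 lower, from VPS39 at 0.28 (adjusted p = 7.01e-08) to VPS41 at -0.25 (adjusted p = 3.14e-06). The 2 called higher, VPS18 and VPS39, both lie on chromosome 15. In the SIN3 complex of SUDS3, 2 of 9 partners were called higher and 1 lower, from SIN3A on chromosome 15 at 0.21 (adjusted p = 3.08e-06) to HDAC2 at -0.14 (adjusted p = 6.59e-04). Among the partners of genes that were not raised, those of MED13L in the Mediator kinase module had 1 of 5 called higher and 2 lower. They ran from CDK19 at 0.15 (adjusted p = 0.0373) to CCNC at -0.16 (adjusted p = 0.00326). Those of VPS37B in ESCRT-I had 1 of 6 called higher (MVB12A, 0.28, adjusted p = 1.10e-05) and 0 lower, with TSG101 lowest at -0.07 (adjusted p = 0.108).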

How the data were processed

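The measurements are RNA-seq of 10 libraries of U266 cells, 5 for each guide as the genotype label gives it. Libraries were poly(A)-selected and strand-specific, per the labels' protocols. STAR 2.27a, Partek, DESeq2 and the build GRCh38 are named, without roles, per the submitters' processing notes. Annotation and strand setting: not given in the sources used here. Results rest on raw read counts, 1 per gene and library, as deposited. A second table that the authors deposited holds a normalized signal: the count plus 0.0001, times a factor of each library (to within 0.000497% where counts exceed 100). It served as an alternative. Entries that name no gene held at most 7.00e-05% of a library's counts and were left out.

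Of 60574 genes, 17834 passed filterByExpr of edgeR 4.0.16 (R 4.3.3) and were fitted together, by edgeR's quasi-likelihood test with TMM scaling, no term other than guide, and p-values adjusted by Benjamini-Hochberg (threshold 0.05). The common biological coefficient of variation was 0.0489. CPM are scaled to the TMM library size, with a prior count of 2 for log2 CPM. The SE of a log2 fold change is its size over the square root of F. Positions came from RefSeq by symbol or GENCODE 29 by name, for 17321 tested genes. The libraries' letters did not pair the guides.

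The members and lists were chosen with earlier results of these data known. Genes with values per library were the 3 largest and 3 smallest rises, all falls, the 5 most abundant genes and those that depart from the median, and EIF2B1 was added after its values were seen. Outside the list, the rule named the edge genes, the 5 largest changes each way in the interval, and the extreme partners of each complex described. Clone-named gene models were counted but not named. KSR2, RNFT2 and EP400P1 were added after their values were seen. Alternatives were DESeq2 1.42.0, limma-voom (limma 3.58.1), other scalings and filters, a replicate block, the deposited normalized values, and leaving out each library or both A libraries. The fit was also run on counts simulated from the means and variation of these same data.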

Additional observations from a re-analysis of the deposited data

Results flagged for a closer look

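In 13 of 124 groups of 5 libraries examined, the highest or lowest library lay far from the other 4 by Dixon's criterion. Chance alone gives about 1 in 20 such groups when groups are independent. These groups share the same 10 libraries, and some are medians over overlapping lists, so nothing is read from the comparison with that rate. Of the 13, 5 were in EFNB2 guide A and 5 in control A.

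With the EFNB2 guide, library A was high for DYNLL1, at 215.6 CPM where the other 4 lay between 189 and 195 CPM. RNF10 was at 316.5 CPM in the same library, above 261 to 274 CPM in the others. UNC119B was at 77.9 CPM there, above 67.4 to 69.8 CPM. CDK2AP1 was at 41.1 CPM, above 36.6 to 37.7 CPM, and GTF2H3 at 56.6 CPM, above 52.6 to 53.4 CPM. Library C of this guide was high for MED13L, at 60.5 CPM where the others lay between 55.6 and 56.8 CPM.

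Control A was low for MLEC, at 297.8 CPM where the other controls lay between 324 and 332 CPM. VPS37B was at 151.5 CPM in control A, below 173 to 177 CPM, and GOLGA3 at 207.8 CPM, below 232 to 235 CPM. The median shift of the 58 genes was -0.0482 on the log2 scale in control A, where the other controls lay between 0.0039 and 0.018. For the 54 genes distal to KSR2 it was -0.0434, against 0.0039 to 0.016. RAB35 was low in control D, at 173.1 CPM below 181 to 183 CPM, and FBXO21 was high in control E, at 37.4 CPM above 35.4 to 35.9 CPM.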

How the results depend on the processing

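Of 20 alternatives, none moved the median log2 fold change of the 58 genes outside 0.25 to 0.30, and 51 of the 58 genes kept their call and sign in all of them. It was 0.26 on the deposited normalized values and 0.25 without both A libraries, where 6 genes of the list were called lower, DYNLL1, VPS37B and SCARB1 (log2 fold change -0.27, adjusted p = 0.0389) being added to the 3. Over the 58 genes, 17 of 1159 compared values lost a call, 13 gained one and 6 changed sign. All of these were in 7 genes (FBXO21, DYNLL1, RNF10, VPS37B, ARL6IP4, CDK2AP1 and SCARB1). The 6 changes of sign were all in DYNLL1, which lies near 0. DYNLL1 was 0.0069 with library totals alone and ran from -0.043 to 0.012 when each library was left out. ARL6IP4 lost its call without the low-count filter (adjusted p = 0.0574), and CDK2AP1 on the deposited normalized values (adjusted p = 0.114). The causes were not tested.

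With each library left out in turn, 46 to 49 genes of the list were called higher and 3 or 4 lower, and the median ran from 0.27 to 0.30. Between settings the share of higher genes among all calls ran from 43.1% (deposited normalized values) to 54.2% (library totals alone), beside 50.3%. The percentage of all genes called fell from 45.4% to 23.5% without the filter, where 35409 genes were tested. It rose to 55.2% without both A libraries, where more genes of the list were called lower. The letters A to E did not pair the guides: correlations of the deviations of same-lettered libraries were -0.24, -0.0030, -0.085, -0.033 and -0.037, and 0 of 5 correlated best with their own letter. With the letter as a replicate block, 46 genes of the list were called higher and 3 lower, with a median of 0.29, and 6762 genes were called in all. ARL6IP4 (adjusted p = 0.0669) and CDK2AP1 (adjusted p = 0.0869) lost their calls under the block. Genes under 1 CPM, such as ARL6IP4, are limited by their counts.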

Other observations

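Outside the list, the interval holds further genes of replication, the nucleus and chromatin, which were named after their values were seen. POLE, the catalytic subunit of DNA polymerase epsilon, was at 222, 252, 253, 242 and 249.1 CPM in libraries A to E with the EFNB2 guide and at 176, 153, 142, 149 and 159 CPM in the controls. The guides did not overlap, and the log2 fold change was 0.65 (SE 0.050, edgeR's adjusted p = 6.33e-08). KMT5A, which methylates histone H4, was higher by 0.65 (adjusted p = 1.02e-08), and RAN, the GTPase of nuclear transport, by 0.36 (adjusted p = 4.80e-09). The chromatin regulators KDM2B and SETD1B were higher by 0.33 and 0.43 (adjusted p = 9.61e-07 and 4.25e-08).

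Some genes inside the raised stretch did not pass, among them 2 named after their values were seen. The ribosomal protein gene RPLP0 had a mean of 3368 ± 164 CPM in the controls and 3445 ± 172 CPM beside the EFNB2 guide (SD over 5 libraries), and its log2 fold change was 0.03 (edgeR's adjusted p = 0.5195). The noncoding RNA NRAV had a log2 fold change of -0.03 (adjusted p = 0.502). The guides overlapped for both genes. NRAV lies within DYNLL1, which had more counts and was also not called, so its reads may be mixed with those of DYNLL1.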
